A study of Mus musculus with 6 samples.

Results

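The IL-17 receptor and response regulators described here are 10 mouse genes: the receptor subunit genes Il17ra, Il17rc and Il17re, the ligand gene Il17c, the adaptor gene Traf3ip2, and the response regulator genes Nfkbiz, Zc3h12a, Bcl3, Socs3 and Stat3. They were found as the non-control probes that the scanner files assign to these gene names, which gave 12 of 39429 probes, with 2 probes each for Il17rc and Stat3 and 1 for each other gene. Of the 10 genes, 9 were measured and tested among 23675 genes, and Il17c was not well above background on any array.

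Ear skin of 6 mice was profiled as total RNA on 1-colour Agilent arrays, with an array for each mouse. The WT group holds 3 mice labelled NC16A sufficient (numbers 1, 2 and 3), and the KO group holds 3 labelled NC16A deficient (numbers 1, 2 and 7). NC16A is the extracellular segment next to the membrane of BP180, also called collagen XVII, a hemidesmosome protein of basal keratinocytes. The study's title concerns spontaneous inflammation of the skin when BP180 is dysfunctional, so the comparison shows which transcripts differ in skin without this segment. Per the design text both groups were matched in age and sex and all RNA came from fresh tissue; the ages, the strain, the extent of the deletion and whether it was limited to 1 cell type are not given in the sources used here.

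IL-17A and IL-17F bind a receptor of IL-17RA and IL-17RC, and IL-17C, a cytokine made by epithelium, binds IL-17RA with IL-17RE. All of these receptors signal through the adaptor Act1, the product of Traf3ip2, to NF-kB and C/EBP factors and to proteins that stabilise inflammatory mRNAs. In skin, keratinocytes are a main responding cell and answer with antimicrobial proteins, neutrophil-attracting chemokines and further cytokines. The response is shaped by IkB-zeta (Nfkbiz) and Bcl-3 (Bcl3), nuclear proteins of the IkB family, by Regnase-1 (Zc3h12a), a nuclease that degrades inflammatory mRNAs, and by STAT3 and its feedback inhibitor SOCS3.

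On each array 72.6% to 78.2% of spots were well above background, and no spot was saturated. The signal's 75th percentile, by which each array was scaled, lay at 5569 to 7056 intensity units in WT, against 4068 to 4712 in KO. The WT arrays and KO 1 were on slide 1, and KO 2 and KO 7 were on slide 2. Col17a1, the gene of BP180, gave 4.32, 4.31 and 4.38 in WT 1, 2 and 3, against 4.38, 4.22 and 4.01 in KO 1, 2 and 7 (difference -0.13 ± 0.14, adjusted p = 0.55); whether its probe lies in the deleted segment is unknown, so it checks no label. All 8 keratinocyte markers of the list used here were well above background on all 6 arrays. Signals below are log2 values relative to the array's 75th percentile, group values are mean ± SD (n = 3 mice), and differences are KO minus WT ± standard error of the limma fit. A gene is said to have risen or fallen where its Benjamini-Hochberg adjusted p over all genes was under 0.05. In RNA from whole skin, a change in the number of cells of a type and a change in RNA per cell cannot be told apart.

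Of the 9 measured genes, 3 rose in KO, namely Nfkbiz, Zc3h12a and Bcl3, 0 fell and 6 did not pass. Over all 23675 genes 2.42% changed in either direction, 473 of them upward and 100 downward. At an unadjusted p under 0.05 in the same limma fit, 6 of the 9 were higher and 0 lower, against 16.5% of all genes higher. In 7 of the 9 every KO array lay above every WT array after scaling, which held for 20.7% of all genes, and in Il17ra and Traf3ip2 the groups overlapped. The median difference of the 9 was 0.67, against 0.05 over all genes, and 0.54 against -0.01 when KO 1 was set against the WT arrays of its own slide. The genes that did not pass were Il17ra, Il17rc, Il17re, Traf3ip2, Socs3 and Stat3. Of these, Il17rc (adjusted p = 0.040), Il17re (adjusted p = 0.023), Socs3 (adjusted p = 0.012) and Stat3 (adjusted p = 0.010) passed in limma with array weights. In that setting 4345 of all 23675 genes were called higher and 3083 lower, so passing there sets these 4 little apart. Slide 2 holds KO arrays only, so every value given below with slide as a block compares 1 KO mouse, KO 1, with the 3 WT mice, and its error comes from the spread among the WT mice and between KO 2 and KO 7.

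**Figure D1:**
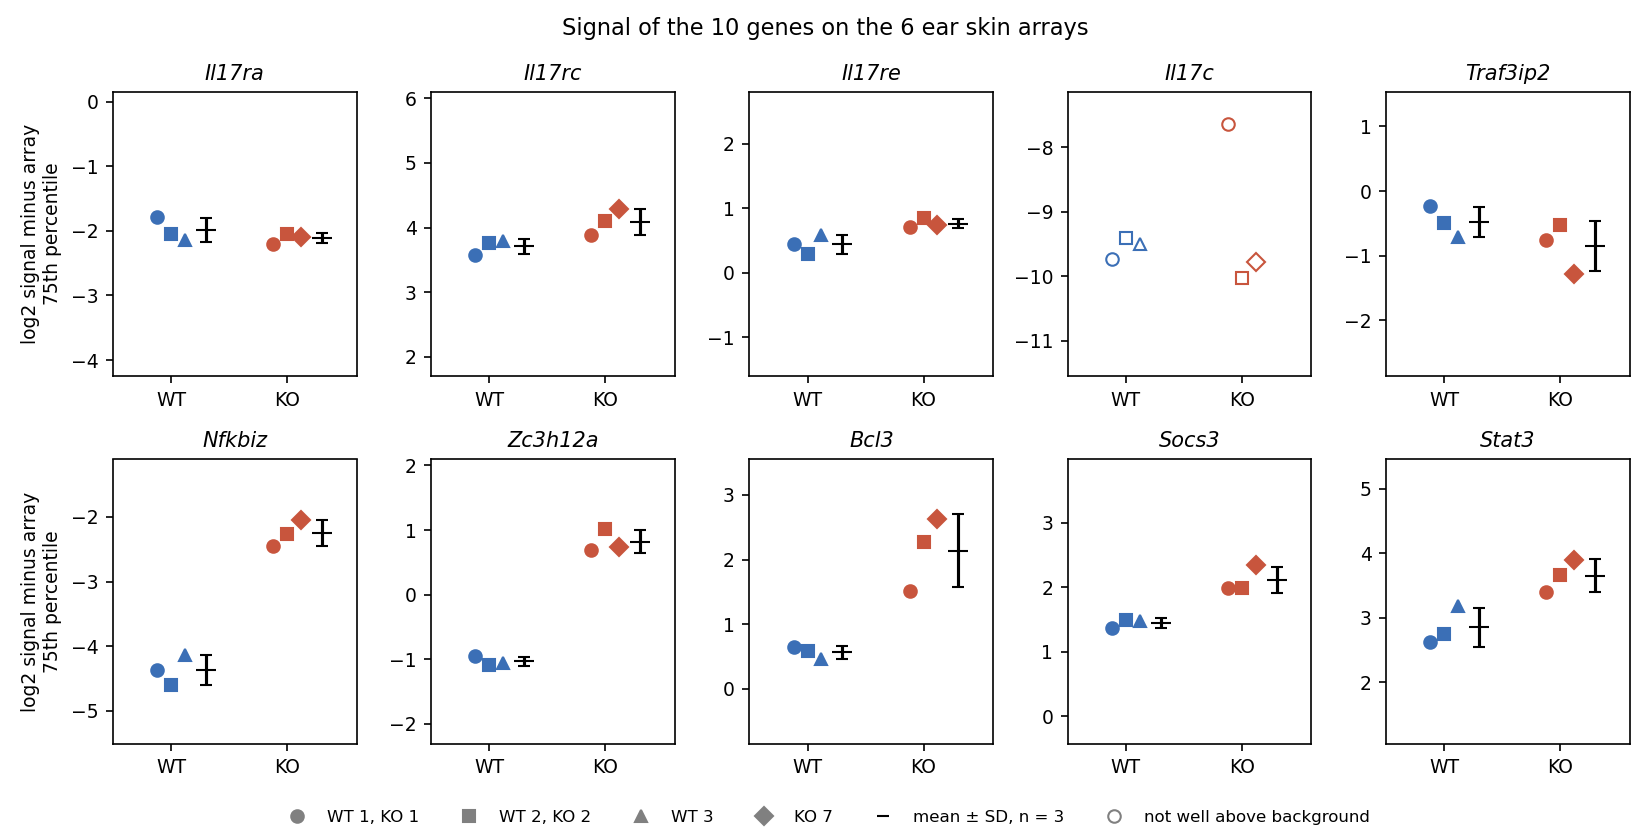
Signal of each of the 10 genes on every array, on the log2 scale relative to the 75th percentile of its array (vertical axes span the same range but start at different levels). Points are mice, bars are mean ± SD over 3 mice, and open points mark probes not well above background. Nfkbiz, Zc3h12a and Bcl3 are separated by 0.87 or more between the highest WT and the lowest KO array, whereas Il17ra and Traf3ip2 overlap and Il17c stays at background.

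The shared receptor subunit gene Il17ra showed no detected difference. Its probe lies on chromosome 6 from 120432880 to 120432939 of mm9, plus strand. The signal was -1.78, -2.05 and -2.14 in WT 1, 2 and 3, against -2.20, -2.04 and -2.09 in KO 1, 2 and 7. The KO values lay within or just below the WT range. The difference was -0.12 ± 0.14 (95% confidence interval -0.46 to 0.22, adjusted p = 0.60). Its sign turned with normexp background correction (0.05, adjusted p = 0.81).

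Il17rc encodes the partner of IL-17RA for IL-17A and IL-17F, and its 2 probes cover neighbouring stretches of chromosome 6. The brighter one (mm9 113433073 to 113433132, plus strand) gave 3.58, 3.77 and 3.79 in WT 1, 2 and 3, against 3.88, 4.10 and 4.29 in KO 1, 2 and 7. The groups did not overlap, with a gap of 0.09 between WT 3 and KO 1. The difference of 0.38 ± 0.15 (95% confidence interval 0.01 to 0.74) did not pass (adjusted p = 0.18). KO 1 exceeded the WT mean of its slide by 0.17. Before scaling, the intensities were 84143, 75876 and 81072 in WT, against 69453, 75684 and 79348 in KO, so every KO array was below WT 1 and WT 3 and the order rested on the scaling. The other probe (113432655 to 113432714) gave -0.83, -0.60 and -0.57 in WT, against -0.51, -1.07 and -0.16 in KO. There KO 2 was the lowest of the 6 arrays and KO 7 the highest, and the difference was 0.08 ± 0.24 (adjusted p = 0.84 over all probes). The probes are shown because they gave different separations, by the leading 30 of their 60 bases, brighter probe on the upper line.
Il17rc brighter probe: gcgaggaatgggacctgggaccctgcacta
Il17rc other probe: ttccaccaccagcgacgccgtatcctgcag

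Il17re encodes the subunit that pairs with IL-17RA to bind IL-17C, and it is known for its expression in epithelium. Its probe (mm9 chromosome 6, 113420078 to 113420137, plus strand) gave 0.44, 0.29 and 0.59 in WT 1, 2 and 3, against 0.70, 0.84 and 0.73 in KO 1, 2 and 7. The lowest KO array was 0.12 above the highest WT array. Before scaling the Il17re intensities were 9582, 6799 and 8824 in WT, against 7679, 7938 and 6761 in KO, all of the latter below WT 1 and WT 3, so this order too rested on the scaling. With a difference of 0.32 ± 0.13 (95% confidence interval -0.00051 to 0.64) the gene did not pass (adjusted p = 0.19), and within slide 1 the difference was 0.27. Its ligand gene Il17c, read by a probe on mm9 chromosome 8 (124947254 to 124947313, plus strand), was not well above background on any of the 6 arrays. The Il17c intensities were 8.28, 8.21 and 8.10 in WT 1, 2 and 3, against 23.6, 4.24 and 4.63 in KO 1, 2 and 7, and no fold is given. KO 1 stood above the other 5 arrays but remained below the background threshold of its own array, by 0.50 on the log2 scale.

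Traf3ip2 encodes Act1, the adaptor that every IL-17 receptor complex recruits. Its probe matches mm9 chromosome 10 from 39361186 to 39365558 on the plus strand, a span of 4373 bases for 60 probe bases, so it crosses at least 1 splice junction. The signal was -0.24, -0.49 and -0.71 in WT 1, 2 and 3, against -0.75, -0.53 and -1.28 in KO 1, 2 and 7. KO 2 lay inside the WT range, and KO 7 was the lowest of the 6 arrays. The difference of -0.38 ± 0.23 (95% confidence interval -0.93 to 0.18) did not pass (adjusted p = 0.32), with -0.27 for KO 1 within its slide.

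Nfkbiz, whose product IkB-zeta binds NF-kB in the nucleus and is needed to induce several IL-17 target genes, had the largest difference among the 9. Its probe lies on mm9 chromosome 16 from 55817859 to 55817918, minus strand. Intensities before scaling were 339.7, 230.5 and 333.3 in WT 1, 2 and 3, against 864.3, 921.1 and 988.2 in KO 1, 2 and 7, and each KO array was brighter than each WT array although the KO arrays were dimmer as a whole. Scaled, these became -4.38, -4.59 and -4.14 in WT (-4.37 ± 0.23), against -2.45, -2.26 and -2.04 in KO (-2.25 ± 0.20). The gap between the highest WT and the lowest KO array was 1.69, several times the SD of either group. Nfkbiz rose by 2.12 ± 0.18, or 4.34-fold (95% confidence interval 3.24 to 5.82, adjusted p = 0.0034). A larger rise was fitted for 1.44% of all genes. KO 1 alone exceeded the WT mean by 1.92 (adjusted p = 0.044 from the slide block), and over the fits without 1 mouse the difference was 2.01 to 2.23 with an adjusted p of at most 0.024.

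Zc3h12a encodes Regnase-1, an RNase that cleaves stem-loops in inflammatory transcripts and restrains IL-17 responses. Its probe lies on mm9 chromosome 4 from 124795870 to 124795929, minus strand. The signal was -0.95, -1.09 and -1.06 in WT 1, 2 and 3 (-1.03 ± 0.073), against 0.69, 1.02 and 0.74 in KO 1, 2 and 7 (0.82 ± 0.18). This was the tightest WT group among the genes that rose, and the gap to the lowest KO array was 1.64. Before scaling the intensities were 3650, 2613 and 2820 in WT, against 7598, 8966 and 6811 in KO. Zc3h12a rose by 1.85 ± 0.14, or 3.61-fold (95% confidence interval 2.86 to 4.55, adjusted p = 0.0025), the smallest p of the 9. KO 1 alone exceeded the WT mean by 1.72 (adjusted p = 0.033 from the slide block), and Zc3h12a passed without each mouse in turn with an adjusted p of at most 0.021.

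Bcl3, whose product is a nuclear IkB protein that binds p50 and p52 dimers of NF-kB, rose as well, but its call depended on single mice, on the slide and on the filter. The probe lies on mm9 chromosome 7 from 20393826 to 20393885, minus strand. The signal was 0.64, 0.58 and 0.46 in WT 1, 2 and 3 (0.56 ± 0.094), against 1.52, 2.27 and 2.63 in KO 1, 2 and 7 (2.14 ± 0.56). Every KO array was above every WT array, and KO 1 was the lowest of the KO arrays by 0.93 against the mean of those on slide 2. Bcl3 rose by 1.58 ± 0.28, or 2.98-fold (95% confidence interval 1.88 to 4.74, adjusted p = 0.045). Within slide 1 the difference was 0.96, and it did not pass with slide as a fixed block (adjusted p = 0.26), as a random block (adjusted p = 0.051) or with no filter on dim probes (adjusted p = 0.089). It also did not pass without WT 1 (adjusted p = 0.10), WT 2 (0.16), WT 3 (0.12), KO 2 (0.12) or KO 7 (0.065), and passed without KO 1 (adjusted p = 0.011), where all WT arrays were on one slide and all KO arrays on the other.

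The probes of the 3 genes that rose are given by the leading 30 of 60 bases, so that the transcripts read can be identified.
Nfkbiz probe: caggtagagcaggaagaaagcaaattggca
Zc3h12a probe: aggcgagatttaaatattttaaatgaaaaa
Bcl3 probe: ggagggcattgatcacagtgtaaattatta

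After scaling, Socs3 and Stat3 were higher on every KO array without passing. Socs3 encodes an inhibitor of receptor-bound JAK kinases that STAT3 itself induces, and its probe lies on mm9 chromosome 11 from 117827480 to 117827539, minus strand. The Socs3 signal was 1.36, 1.50 and 1.47 in WT 1, 2 and 3, against 1.99, 1.99 and 2.35 in KO 1, 2 and 7. The groups were separated by 0.49 after scaling. Before it, the intensities were 18133, 15738 and 16242 in WT, against 18750, 17602 and 20687 in KO, and KO 2 lay below WT 1. The difference of 0.67 ± 0.15, or 1.59-fold (95% confidence interval 1.24 to 2.03), had an adjusted p of 0.072, and KO 1 gave 0.55 within its slide. It passed with an intensity trend in the variance model (adjusted p = 0.043) and with array weights (adjusted p = 0.012).

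Stat3 encodes the transcription factor downstream of IL-6 and IL-22 family receptors, and it was read by 2 probes. The brighter probe, spotted 10 times on each array (mm9 chromosome 11, 100749598 to 100749657, minus strand), gave 2.62, 2.74 and 3.19 in WT 1, 2 and 3, against 3.39, 3.66 and 3.90 in KO 1, 2 and 7. The KO arrays were all higher, but WT 3 came within 0.20 of KO 1. Before scaling, KO 1 (49455 intensity units) lay below WT 3 (53546), so the separation rested on the scaling. The difference of 0.80 ± 0.21, or 1.74-fold (95% confidence interval 1.23 to 2.46), did not pass (adjusted p = 0.093), with 0.54 for KO 1 within its slide. The dimmer probe (100759946 to 100760005) gave -2.80, -3.64 and -2.90 in WT, against -3.11, -2.58 and -3.04 in KO. Its groups overlapped, and its difference was 0.20 ± 0.27 (adjusted p = 0.63 over all probes). The leading 30 bases of both probes are given so that each can be identified; the difference between the probes was not tested.
Stat3 brighter probe: cactctgtgagctgataccccaggctggga
Stat3 dimmer probe: tttaacattctgggcacgaacacaaaagtg

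**Figure D2:**
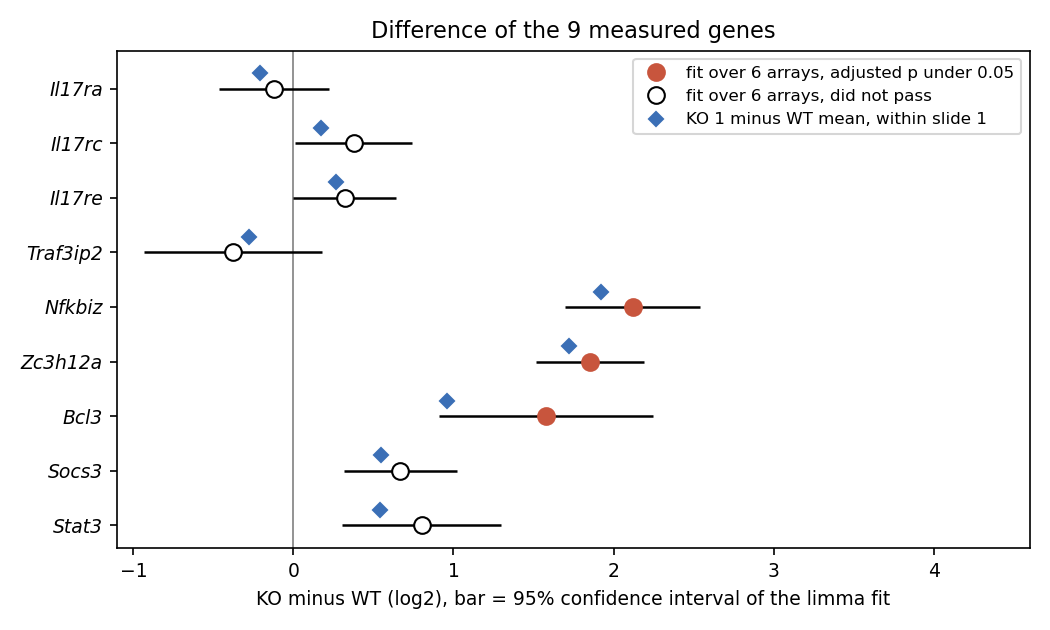
Fitted KO minus WT difference (log2) of the 9 measured genes over 6 arrays, with 95% confidence intervals of the limma fit; filled points had an adjusted p under 0.05. Diamonds give KO 1 minus the WT mean within slide 1, which is 1.92 for Nfkbiz, 1.72 for Zc3h12a and 0.96 for Bcl3 and has the sign of the fitted difference for all 9 genes.

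With slide as a block, which leaves KO 1 as the only KO mouse compared, the difference was 1.92 for Nfkbiz, 1.72 for Zc3h12a and 0.96 for Bcl3. The mean of KO 2 and KO 7 on slide 2 minus KO 1 was 0.93 for Bcl3, 0.39 for Stat3, 0.31 for Il17rc, 0.29 for Nfkbiz, 0.19 for Zc3h12a, 0.18 for Socs3, 0.13 for Il17ra, 0.08 for Il17re and -0.15 for Traf3ip2. Differences between slides and between mice cannot be told apart for these arrays.

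Promoter windows, the 250 bases before the annotated start, came from RefSeq (GRCm38.p6) and were found for 7 of the 10 genes, which excludes Nfkbiz, Il17ra and Traf3ip2. They were searched on both strands for GGGNNNNNCC, a form of the NF-kB site, TTCNNNGAA, the STAT site, and TTGCNNAA, a form of the C/EBP site. The first was found in 4 of the 7 windows (Il17rc, Zc3h12a, Bcl3 and Socs3), against 45.8% of 32851 windows of this length. The STAT form was found in 1, Socs3, 154 bases before the start, against 7.02% of all windows, and the C/EBP form in 0, against 9.56%. The windows of Zc3h12a (GRCm38.p6 chr4:125127882-125128131), Bcl3 (chr7:19822756-19823005) and Socs3 (chr11:117969367-117969616), all on the minus strand, are shown with matches in capitals because Zc3h12a and Bcl3 rose and Socs3 holds both forms. Matches to the NF-kB form began 147, 78 and 13 bases before the start in Zc3h12a, 85, 46 and 45 in Bcl3, where the last pair overlaps, and 97 in Socs3. A match describes letters only and shows no binding.
Zc3h12a promoter: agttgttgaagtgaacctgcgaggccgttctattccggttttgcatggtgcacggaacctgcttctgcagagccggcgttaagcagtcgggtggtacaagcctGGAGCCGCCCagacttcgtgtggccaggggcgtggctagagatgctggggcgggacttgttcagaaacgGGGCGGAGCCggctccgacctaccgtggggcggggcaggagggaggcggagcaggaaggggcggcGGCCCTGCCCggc
Bcl3 promoter: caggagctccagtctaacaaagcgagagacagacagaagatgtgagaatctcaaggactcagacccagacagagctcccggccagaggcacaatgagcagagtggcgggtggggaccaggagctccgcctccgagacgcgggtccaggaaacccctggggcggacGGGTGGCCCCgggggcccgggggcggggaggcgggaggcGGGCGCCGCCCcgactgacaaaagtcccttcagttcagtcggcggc
Socs3 promoter: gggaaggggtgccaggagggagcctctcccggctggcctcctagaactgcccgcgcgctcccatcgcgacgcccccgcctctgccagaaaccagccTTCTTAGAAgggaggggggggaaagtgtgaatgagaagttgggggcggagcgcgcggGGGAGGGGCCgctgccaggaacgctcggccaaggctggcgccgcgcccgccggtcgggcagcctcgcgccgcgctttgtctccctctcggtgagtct

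Around these 10 genes, 6 lists of pathway genes held 118 further genes. Of these, 115 were tested, 11 rose and 0 fell, against 473 higher and 100 lower among all 23675 genes. The 11 that rose include Csf3, which was at background on all WT arrays and met the filter through the KO arrays alone. Il17a and Il17f, well above background on 1 and 2 WT arrays, also needed KO arrays to meet it, so the filter favoured a rise there. With the filter on all 6 arrays, 9 pathway list genes rose. Il6, Il19, Il20 and Il24 stand both among the IL-17 targets and among the STAT3-activating cytokines and count once in these totals. The ligands and remaining receptors held 7 genes, of which 6 were tested, 2 rose and 0 fell, with a median of 0.17. Il17a, the T cell cytokine that acts through IL-17RA and IL-17RC, gave -7.41, -8.19 and -8.23 in WT 1, 2 and 3, against -4.08, -3.21 and -2.93 in KO 1, 2 and 7, and rose by 4.54 ± 0.36 (adjusted p = 0.0028). It was well above background on 1 of 3 WT arrays, which leaves the fitted size of the rise imprecise. Il17f, its close relative, was well above background on 2 of 3 WT arrays and rose by 1.47 ± 0.23 (adjusted p = 0.031). That call was lost when WT 1, WT 2, KO 2 or KO 7 was left out (highest adjusted p = 0.10) and with slide as a block (adjusted p = 0.33).

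The genes of IL-17 signal transduction and NF-kB, beyond the 10, held 31 members, of which 0 rose and 0 fell in limma; at an unadjusted p under 0.05, 2 were higher and 1 lower. Their median was 0.11, and -0.02 within slide 1. Over all 23675 genes, 16.5% were higher at an unadjusted p under 0.05 in limma, and 6307 had such a p in either direction. Nfkbid, which encodes a further nuclear IkB protein, differed by 1.33 ± 0.36 (adjusted p = 0.10), and its KO arrays gave -1.72, -1.47 and -0.28 against -2.44 to -2.57 in WT. KO 7 stood well above the other KO arrays there. Traf2, an adaptor of TNF and IL-17 receptor signalling, differed by 0.47 ± 0.16 (adjusted p = 0.14), while its other probe gave -0.23. Of 14 regulators of RNA stability 0 rose and 0 fell, with 1 higher and 0 lower at an unadjusted p under 0.05 and a median of 0.02. Arid5a, which protects inflammatory transcripts against Regnase-1, differed by 0.57 ± 0.19 (adjusted p = 0.14), and Rc3h1, the gene of Roquin-1, by 0.31 ± 0.14 (adjusted p = 0.21). Zc3h12a passed and none of these 14 did, but the difference between it and them was not tested.

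Of the targets that IL-17 induces in epithelium, S100a8, S100a9, Lcn2 and Defb14 were among those that rose. Of 28 genes 27 were tested, 9 rose, 0 fell and 18 did not pass, and 24 of the 27 were higher in the mean. Among all genes 2.42% changed in either direction, and 54.3% were higher in the mean. The 9 include Csf3, which was well above background on 0 WT and 3 KO arrays. It met the filter through the KO arrays alone, so only a rise could be called for it. Cxcl3, which did not pass, entered the 27 in the same way. S100a7a was well above background on 1 WT and 3 KO arrays, Cxcl2 and Defb4 on 2 WT and 3 KO arrays, and Csf2 on 2 of each. These too needed KO arrays to meet the filter. No bound was set for them, so the filter can raise the medians of this list. The median of the 27 was 2.71, and 2.03 within slide 1, against a median of 0.05 for all genes. With the 2 genes at background on all WT arrays (Csf3 and Cxcl3, named after their values were seen) set to their bound, the median was 2.33. S100a9 and S100a8, which encode the antimicrobial protein calprotectin, rose by 4.68 ± 0.29 (adjusted p = 0.0019) and 4.71 ± 0.35 (adjusted p = 0.0023). Lcn2, the gene of the iron-binding protein lipocalin-2 and a known target of IkB-zeta, rose by 2.71 ± 0.34 (adjusted p = 0.014), with the call lost when WT 2 or KO 2 was left out (highest adjusted p = 0.071). Defb14, an epithelial defensin gene, rose by 1.90 ± 0.25 (adjusted p = 0.015) and lost its call without WT 1, WT 2 or WT 3 (highest adjusted p = 0.074). With slide as a block, which compares KO 1 alone, 2 of the 27 passed, S100a8 and S100a9.

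Of the cytokines and receptors that activate STAT3, 25 of 26 genes were tested, 1 rose, 0 fell and 24 did not pass, with a median of 0.21. Il20, a cytokine of the IL-10 family that keratinocytes make, rose by 1.68 ± 0.26 (adjusted p = 0.029) and lost its call when any WT mouse or KO 2 was left out (highest adjusted p = 0.12) and with slide as a block (adjusted p = 0.25). Il12rb1, a subunit of the IL-12 and IL-23 receptors, differed by 1.24 ± 0.28 (adjusted p = 0.074), while its other probe gave 0.06. Among the 16 other STAT and SOCS family genes 0 rose and 0 fell, with a median of 0.04. At an unadjusted p under 0.05 in limma 2 were higher and 1 lower, against 16.5% of all genes higher. Socs6 differed by -0.89 ± 0.33 (adjusted p = 0.16) and Socs1, another inhibitor of JAK kinases, by 0.57 ± 0.23 (adjusted p = 0.18). Socs3 at 0.67 and Stat3 at 0.80 lay above the median of these 16 but below their largest difference, 0.83, and did not pass either. The other probe of Stat3 gave 0.20.

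**Figure D3:**
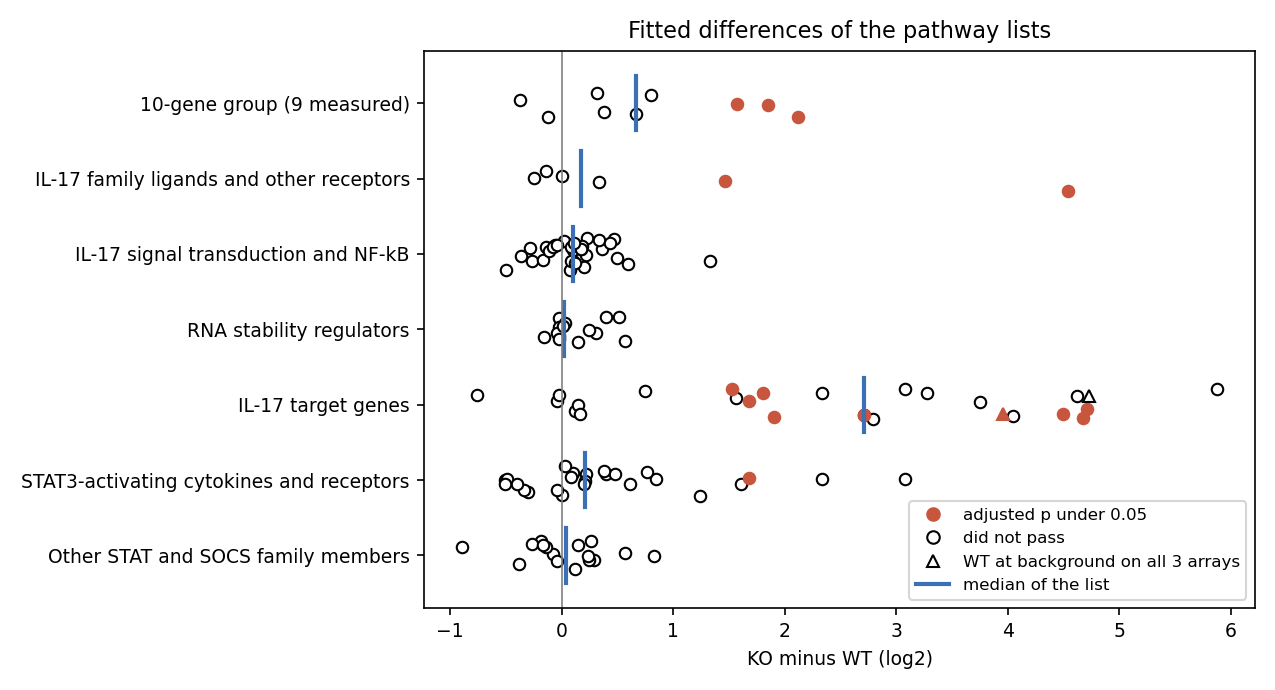
Fitted KO minus WT differences (log2) of the 9 measured genes and of the 6 pathway lists, 1 point per gene, with the list median as a bar; triangles are genes at background in every WT mouse, whose fitted value is no bound. Filled points, with an adjusted p under 0.05, lie among the 9 genes (3), the ligands (2), the IL-17 targets (9) and the STAT3-activating cytokines (1, Il20, which is also among the targets), and 0 lie in the other lists.

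Of the 12 lists of cell type markers, only those of hair follicle, neutrophils and T cells held markers that rose. For comparison, 473 of all 23675 genes rose and 100 fell, and 54.3% of all genes were higher in the mean. At an unadjusted p under 0.05 in limma 16.5% were higher, and 6307 of 23675 had such a p in either direction. In the hair follicle list 9 of 9 markers rose, and their summed signal, in multiples of the array's 75th percentile, was 5.17 to 10.2 in WT, against 62.7 to 113 in KO. Of 9 tested neutrophil markers 3 rose (Cxcr2, S100a8 and S100a9) and 0 fell; at an unadjusted p under 0.05, 6 were higher and 1 lower, the neutrophil surface marker Ly6g (-0.35, adjusted p = 0.19). The summed signal was 10.5 to 12.4 in WT, against 71.6 to 116 in KO. Without S100a8 and S100a9, which keratinocytes make as well, it was 8.32 to 8.93 in WT, against 11.6 to 21.0 in KO, with 1 of 7 rising. Of 8 T cell markers 1 rose (Icos), with 4 higher and 1 lower at an unadjusted p under 0.05 and sums of 4.16 to 4.79 in WT, against 4.85 to 7.16 in KO. Keratinocyte markers had 0 of 8 rising and 4 higher at an unadjusted p under 0.05 in limma, with sums of 398 to 463 in WT, against 523 to 637 in KO. Macrophage and monocyte markers had 0 of 8 rising and 7 of 8 lower in the mean, with 0 higher and 2 lower at an unadjusted p under 0.05 (Cd68 by -1.06 and Cd163 by -1.01) and sums of 23.0 to 25.7 in WT, against 18.4 to 29.5 in KO. In the lists of Langerhans and dendritic cells, B and plasma cells, fibroblasts, endothelium, adipocytes, skeletal muscle and cartilage 0 markers rose, and 0 fell in any of the 12 lists. At an unadjusted p under 0.05 in limma 3 B and plasma cell and 3 fibroblast markers were higher, and 1 endothelial, 3 adipocyte, 2 muscle and 4 cartilage markers were lower. No tested marker of these lists was at background on all WT arrays. Retnlg and Xcr1 were well above background on 2 WT arrays and Cd79a on 1, so these needed KO arrays to meet the filter. The names of single markers given here were picked with their values in view. The part of these cells in the rises of Nfkbiz, Zc3h12a and Bcl3 was not tested.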

How the data were processed

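The deposited scanner files give each spot's processed signal as an intensity on a linear scale; per the file headers the authors' software was Agilent Feature Extraction 10.7.3.1, with background already subtracted and probe positions on mm9. RNA was extracted with Qiagen kits, per the labels' protocols; no batch other than the slide is named. Outlier spots (170 to 249 per array of 43020) were left out, spots of a probe were averaged, and log2 of the signal minus log2 of the array's 75th percentile was taken. Probes had to be well above background on 3 or more arrays, which 29601 were, and each gene was its kept probe with the highest mean. Names came from RefSeq (GRCm38.p6), 26055 probes by accession, 3195 by symbol, 930 by synonym and 9249 as in the file.

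The contrast of KO against WT was fitted with limma 3.58.1 under R 4.3.3 (lmFit and eBayes, two-sided tests). P-values were adjusted by Benjamini-Hochberg over 23675 genes, and the fit was checked on simulated data. There it recovered 40% of genes changed 2-fold and 93% of those changed 4-fold, so a gene that did not pass can still differ. Each replicate is a mouse, so p-values rest on the spread between mice of a group, moderated over all genes by eBayes. In KO that spread includes the slide, which the main fit did not take into account. The text names all 10 genes with every probe. From each list it names every gene that passed where there were 2 to 5, otherwise the 4 that passed with the smallest p, and, with fewer than 2 passing, the 2 of smallest p; likeness was ranked by the root mean square difference over the arrays. Some further list genes are named because few of their WT arrays were above background. The genes and lists were chosen with earlier results of these data known. Alternatives varied the background correction, scaling, filter, probe choice, source of values, replicate and slide blocks, variance model and mice. Summaries and plots used Python 3.11.15, pandas 2.3.3, numpy 2.4.6 and matplotlib 3.10.9.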

Additional observations from a re-analysis of the deposited data

How the results depend on the processing

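Of 191 values of single members under the alternatives, 171 kept their direction and side of the threshold, 14 no longer passed and 5 newly passed. The sign changed for 1, that of Il17ra with normexp background (0.05). The 171 overstate the stability, as some values could not change. The series matrix equalled the scanner values, and genes with 1 probe kept their difference under other probe choices. Only the 3 genes that rose could lose a call, and most of the 14 losses were those of Bcl3. The members that rose numbered 3, and they were 7 with array weights, 1 on slide 1 alone and 2 to 3 without 1 mouse. Genes higher over all, 473, became 4345 with array weights, 268 with no filter on dim probes, 862 with normexp, 157 on slide 1 alone, 158 with slide as a fixed block and 184 to 717 without 1 mouse. The 100 genes lower became 3083, 29 (no filter), 8 (slide 1 alone), 9 (fixed block) and 19 to 259 (without 1 mouse). The 11 pathway list genes higher became 34 with array weights, 6 with no filter, 5 on slide 1 alone, 3 with slide as a fixed block and 4 to 13 without 1 mouse, and the 0 lower became 5 with array weights. Nfkbiz did not pass on slide 1 alone (adjusted p = 0.072). The cause of these changes was not tested. Scaling by the array median moved the median of all genes by -0.13 and gave 387 higher and 150 lower, 72.1% higher against 82.5%, and Bcl3 did not pass (adjusted p = 0.051).

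The groups share only the replicate numbers 1 and 2, and deviations of same-numbered mice correlated at 0.08 and 0.05 over genes. Those of WT 3 and KO 7, which share no number, correlated at 0.21. Deviations from means of 3 arrays cannot show whether same-numbered mice were paired, and the main fit took no pairing into account. With the replicate number as a block 1 residual degree of freedom was left, 0 genes higher, 0 lower, 0 members and 0 pathway genes passed in limma, and 4497 genes had an unadjusted p under 0.05. WT 3 and KO 7 share their number with no other mouse, so this block compares only mice 1 and 2 of each group. The differences were then 2.13 for Nfkbiz, 1.88 for Zc3h12a and 1.28 for Bcl3.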

Other observations

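Genes whose signals over the 6 arrays, each relative to its own WT mean, ran closest to Zc3h12a were Krtap5-3, a hair keratin-associated protein gene (root mean square difference 0.12, KO minus WT 1.88 ± 0.18), Gpr6, a G protein-coupled receptor gene (0.12, 1.74 ± 0.17), and Gpx2, a glutathione peroxidase gene (0.13, 1.92 ± 0.13). Closest to Nfkbiz, among named genes, were LOC16697 (0.12, 2.05 ± 0.18) and Cxcr2, the neutrophil chemokine receptor gene (0.20, 2.04 ± 0.26), together with the transcript ENSMUST00000077670, which has no symbol here (0.17, 2.18 ± 0.16). These genes were picked for their likeness over the same arrays, so it is a description. Krtap5-3 lay at 1.77, 2.22 and 1.65 in KO 1, 2 and 7 relative to its WT mean, with KO 2 the highest, as for Zc3h12a.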
